A study of Mus musculus with 2 samples.

Results

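The transcription factor p53 is kept scarce in unstressed cells by the ubiquitin ligase MDM2 and its partner MDM4, and it accumulates when cells are stressed or age in culture. It then binds response elements near its target genes, whose products halt the cell cycle, repair DNA, alter metabolism or trigger cell death. Several targets, Mdm2 among them, encode proteins that limit p53 in turn, so that the pathway is a feedback loop. Mouse embryonic fibroblasts (MEFs) hold an intact p53 pathway, and p53 takes part in their senescence.

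To examine this pathway in cells given a GapmeR against the lncRNA AK156230, 34 genes were taken: Trp53 itself, its regulators and its known targets. Each was matched to the probe sets (groups of oligonucleotide probes for 1 transcript) whose platform annotation names that gene alone, and where a gene had several, the brightest by mean log2 signal over both arrays stood for it. This gave values for 33 of the 34 genes, out of 18193 named genes in all, and Trp53 was not analysed here. The cells were primary MEFs of C57BL/6 mice, prepared from embryos at E13.5 and used young, at passage 2. They were transfected with GapmeR AK156230, a locked nucleic acid oligonucleotide that has the lncRNA cut by RNase H, or with GapmeR Control, a non-targeting one. Each condition was 1 array, called the control array and the AK156230 array here, and 1 GapmeR was used against the lncRNA. With no replicates there is no SD, no test and no p-value for any difference given here. The threshold for counting a gene as higher or lower was 2-fold, which is a counting rule only. A single pair of arrays cannot tell a fold of any size from no difference, and smaller folds are given as values.

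The deposited values are MAS5 signals, which summarize the probe intensities of a probe set on a linear scale. The median signal was 54.8 on the control array and 50.95 on the AK156230 array, and a probe set is called bright if it reached the median of the array on which its signal was higher. To gauge how far probe sets of a gene disagree, the ratios between the arrays were compared for the 2 brightest probe sets of 5113 genes, which gave a spread of 0.28 (SD of the log2 ratio per probe set). It does not hold the spread between cultures. All 12 fibroblast markers measured were at or above the array median on both arrays. On the AK156230 array 5 of the 12 were lower by at least 2-fold, against 3.85% of all named genes. The summed signal of the 12 markers was 36844 on the control array and 24169 on the other. The level of AK156230 itself was not analysed here. In RNA of a whole culture, fewer cells of a type and less RNA per cell cannot be told apart.

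Most genes of the pathway had somewhat higher signals on the AK156230 array, and few passed 2-fold. Of the 33 genes 2 were higher by 2-fold or more, Perp and Rprm, which is 6.06% of them, against 1.59% of all named genes. None was lower to that extent, against 3.85% of all named genes. For 33 genes a count of none lower is near that share, and the count of 2 higher is small. At 1.5-fold, 8 were higher and 1 was lower, against 5.48% and 9.69% of all named genes. Log2 ratios, here always of the AK156230 array over the control array, were above 0 for 25 of the 33, or 75.8%, against 41.2% of all named genes, and their median was 0.37, against -0.07. The medians by role were not all on the same side of 0. The 7 regulators had a median log2 ratio of 0.43, the 8 genes of growth arrest and mitosis 0.57, the 8 of cell death and survival 0.42 and the 5 of DNA repair 0.30, while the 5 of stress and metabolism had a median of -0.32. Among the 32 bright genes, all but Ddb2, 2 were higher and none was lower, against 1.9% and 4.92% of all bright named genes. At 1.5-fold 8 were higher and 1 was lower, against 6.19% and 10.7%, and 24 were above 0, against 43.2%. Among all genes past 2-fold, 70.8% were lower, and 60.0% were lower once both arrays were scaled to the same median, which also brought Fas past 2-fold.

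**Figure D1:**
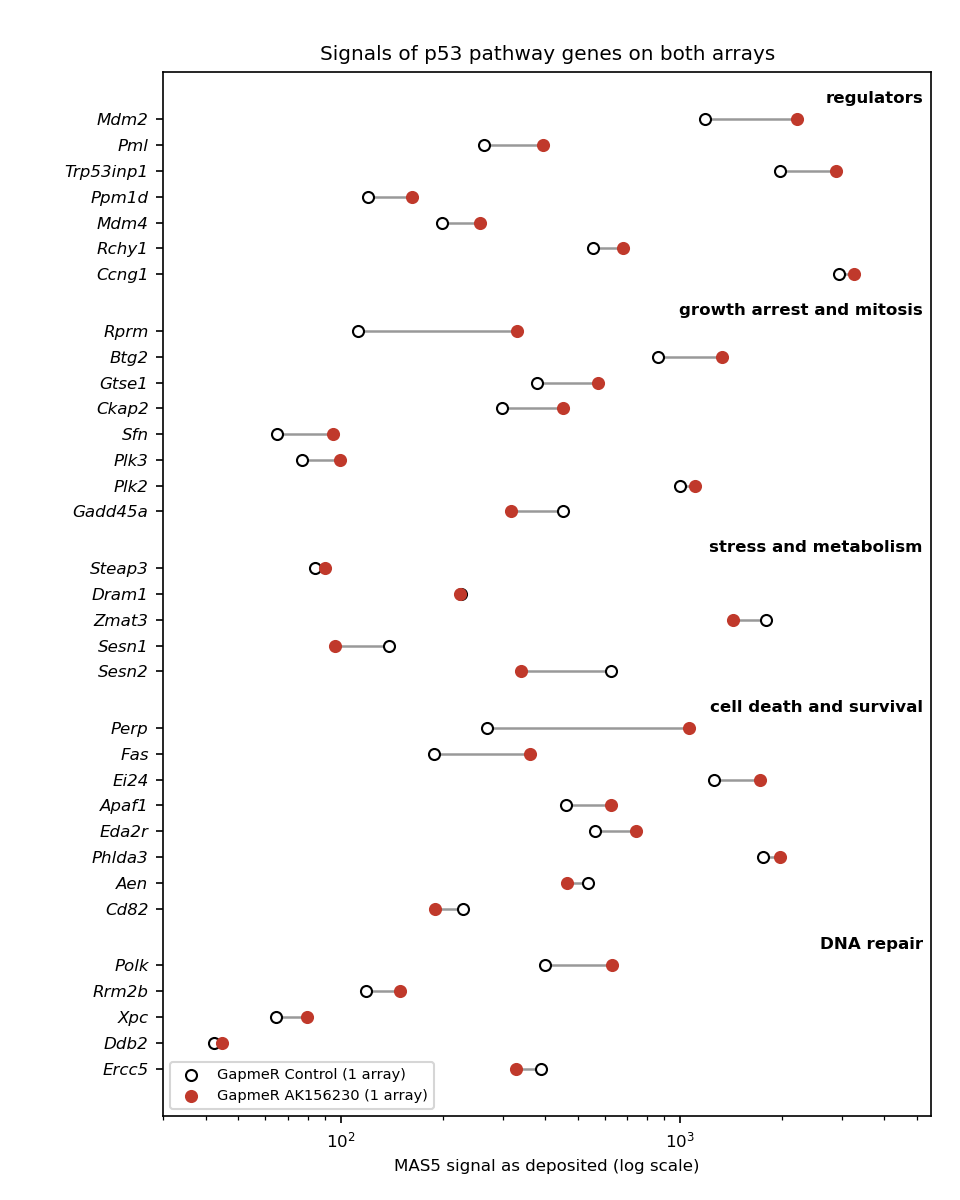
MAS5 signal (log scale) of each p53 pathway gene on the control array (open) and the AK156230 array (red), with genes grouped by role and the 2 points of each gene connected. Perp spans 271 to 1067 and Rprm 112 to 331, and in the stress and metabolism group the red point lies to the left for all genes but Steap3.

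The promoters of these genes were searched for the p53 response element, which is a pair of 10-base half-sites. The windows reached from 250 bases before to 50 after each RefSeq start site in GRCm38.p6, and 27 of the 33 genes had an entry. The half-site reads the same on both strands, and the pair was searched with no spacer. A single half-site stood in a window of 12 of the 27 genes, or 44.4%, against 9.55% of all 27025 genes. The genes were picked as p53 targets, so this share is no independent evidence. Pairs were then allowed mismatches, a limit chosen after the matches were seen. With at most 1 mismatch a pair stood in windows of Ccng1 and Gtse1, or 7.41% of the 27 genes, against 0.107% of all 27025 genes. With at most 2 a pair also stood in that of Ckap2, which gave 11.1% against 0.94%. The upstream 250 bases are printed for Ccng1 and Ckap2, which hold a pair, for Mdm2, the central feedback gene, which holds a single half-site, and for Rprm, the second-highest gene of the pathway, which holds none. For Gtse1 only the pair is shown, with 5 bases on each side, because it lies across the start site of its window. Another Gtse1 window, at chr15:85859457-85859756 with its own start site, held no half-site. Capitals mark bases of the pair, or of the half-site in Mdm2, that fit the response element, and lower-case letters within the 20 bases of a pair are its mismatches, which in Ckap2 include the last base.
Ccng1, chr11:40755287-40755536, minus strand: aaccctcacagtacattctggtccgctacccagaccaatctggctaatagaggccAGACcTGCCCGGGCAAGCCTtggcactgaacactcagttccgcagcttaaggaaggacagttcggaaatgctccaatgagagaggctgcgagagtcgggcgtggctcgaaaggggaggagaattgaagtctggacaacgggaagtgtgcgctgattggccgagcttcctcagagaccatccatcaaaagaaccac
Ckap2, chr8:22185820-22186069, minus strand: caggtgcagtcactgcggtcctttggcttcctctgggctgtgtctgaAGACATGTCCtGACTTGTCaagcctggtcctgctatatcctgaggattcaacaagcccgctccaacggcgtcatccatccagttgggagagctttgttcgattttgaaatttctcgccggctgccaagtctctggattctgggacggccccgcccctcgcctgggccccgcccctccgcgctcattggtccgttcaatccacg
Gtse1, chr15:85859940-85859969, plus strand: accggGAGCAAGTTgGGGCTTGCCTctgac
Mdm2, chr10:117710759-117711008, minus strand: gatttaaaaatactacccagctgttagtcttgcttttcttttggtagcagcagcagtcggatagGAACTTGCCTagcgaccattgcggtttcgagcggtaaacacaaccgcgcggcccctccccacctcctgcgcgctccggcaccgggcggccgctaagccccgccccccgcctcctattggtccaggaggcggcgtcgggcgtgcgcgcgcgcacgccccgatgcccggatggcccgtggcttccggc
Rprm, chr2:54085553-54085802, minus strand: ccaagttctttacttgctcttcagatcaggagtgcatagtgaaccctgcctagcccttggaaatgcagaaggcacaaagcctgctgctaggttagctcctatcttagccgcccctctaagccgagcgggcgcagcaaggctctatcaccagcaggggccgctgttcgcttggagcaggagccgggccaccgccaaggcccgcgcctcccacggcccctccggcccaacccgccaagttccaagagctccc
The pair in Ccng1 begins 195 bases before the start site, that in Ckap2 203 bases before it, and the half-site in Mdm2 186 bases before it. The ratios of genes with and without a match in these windows lay close together. Sites outside the windows were not searched, so a gene without a match here may still hold one. Perp was among the genes with no entry. Genes with a half-site had a median log2 ratio of 0.44, with 9 of 12 above 0, and those without one had 0.37, with 11 of 15 above 0.

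Among the regulators, Mdm2 had the highest ratio and lay just short of 2-fold. Mdm2, on chr10:117688875-117710758, encodes the ligase that marks p53 for degradation. It had a signal of 1187 on the control array and 2206 on the AK156230 array, 1.86-fold higher. A second Mdm2 probe set read 368 and 928, 2.52-fold higher, and the remaining one was below both array medians, at 25.8 and 22.7. Mdm2 thus passed or missed 2-fold depending on the probe set taken. Ppm1d, which encodes the phosphatase WIP1 that switches off p53 and its kinases, had signals of 121 and 163 (control array first, as for every pair of signals here) and was 1.35-fold higher, while its dimmer probe set was 2.03-fold higher (60.5 and 123). Ccng1, which encodes cyclin G1, a target that assists MDM2, was bright on both arrays, with 2936 and 3252. Its ratio was small at this probe set, 1.11-fold, and larger at the others, 1.46-fold and 1.39-fold. Rchy1, which encodes the p53 ligase PIRH2, read 553 and 679.6, 1.23-fold higher.

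Mdm4 encodes the MDM2 partner that binds p53 and blocks its activity, and its probe sets did not go the same way. The probe set with the highest signal read 199 and 257, 1.30-fold higher. Both other bright probe sets were slightly lower, at log2 ratios of -0.11 and -0.13. No direction is given for Mdm4, whose log2 ratio turned to -0.13 when probe sets ending in _x_at or _s_at were left out. Pml encodes the organizer of the nuclear bodies in which p53 is modified, and its signals were 264 and 396, a log2 ratio of 0.58, with 2.14-fold at a second probe set (136 and 289.7). Trp53inp1, which encodes a nuclear protein induced by stress that promotes p53 phosphorylation, read 1978 and 2883, 1.46-fold higher, while its other probe set was below the array medians at 45.7 and 41.6.

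Pml is also a known interferon-stimulated gene, and interferon genes were higher on the same array. Of 10 interferon genes measured 6 passed 2-fold, all of them higher, against 1.59% of all named genes. Usp18, a protease that removes ISG15, had a log2 ratio of 2.68, and Ifit1 was 3.60-fold, Irgm1 3.43-fold and the transcription factor gene Irf7 2.45-fold higher (Irf7 had a log2 ratio of 0.99 with 24.3 added to every signal). The summed signal of the 10 genes was 2336 on the control array and 6179 on the AK156230 array. Its part in the Pml ratio was not tested.

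The group of growth arrest and mitosis genes held Rprm, and 7 of its 8 genes had log2 ratios above 0. Rprm, on chr2:54084093-54085552, encodes Reprimo, a mediator of arrest in G2. It had a signal of 112 on the control array and 331 on the AK156230 array, 2.95-fold higher, which placed it 85th from the top among the 18193 genes. A single probe set reads this gene. The study took Rprm from these same arrays for RT-qPCR, where the paper reports a significant increase after knockdown. Because Rprm was picked from the arrays, its direction on them is not independent evidence. Without Rprm 1 gene of the pathway was higher by 2-fold or more. Btg2, an anti-proliferative gene, read 859 and 1327 and was 1.55-fold higher, with 1.57-fold at its other probe set. Sfn, which encodes the 14-3-3 sigma protein that holds back mitotic kinase complexes, was 1.47-fold higher at low signals of 65.0 and 95.2.

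The polo-like kinase genes differed little between the arrays. Plk2 read 1002 and 1109.9, 1.11-fold higher, and Plk3 was 1.29-fold higher near the array median, at 77.0 and 99.5. Gadd45a encodes a stress protein that inhibits the G2 kinase, and it was the exception in this group. It read 452 and 318, 1.42-fold lower. The mitotic genes Gtse1, whose product shuttles p53 out of the nucleus in G2, and Ckap2, which encodes a spindle protein, were close to each other. Gtse1 read 379 and 572, and Ckap2 read 299.9 and 451. Their log2 ratios of 0.60 and 0.59 were the 2 lowest past 1.5-fold in the pathway, and Pml at 0.58 was the first one short of it.

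Other mitotic genes did not show these ratios. Taken here were 11 measured genes that p53 is known to lower through p21 and the DREAM complex, such as Cdk1, a kinase gene, and Ccnb2, a cyclin gene. None was past 2-fold or 1.5-fold in either direction. Of all named genes 5.48% were higher and 9.69% lower at 1.5-fold, so for 11 genes a count of none is near the share. Log2 ratios of the 11 ran from -0.55 for Bub1b, a spindle checkpoint kinase, to 0.31 for Aurka, another mitotic kinase. The median was -0.04, against 0.60 for Gtse1 and 0.59 for Ckap2. Cdk1 read 1059 and 1030.5. These are RNA signals, whereas the paper reports, by western blotting, less CDK1 protein after the knockdown.

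The group of cell death and survival genes held Perp, the gene with the highest ratio in the pathway. Perp, on chr10:18845071-18857073, encodes a membrane protein that takes part in p53-dependent death and in desmosomes. It had a signal of 271 on the control array and 1067 on the AK156230 array, 3.94-fold higher, 43rd from the top among the 18193 genes. Fas, on chr19:34290647-34327775, encodes a death receptor. It read 188 and 362, 1.92-fold higher, just outside the threshold, and was 2-fold higher once the arrays were scaled to the same median, at a log2 ratio of 1.05. Each of these genes has 1 probe set. Apaf1, the scaffold of the apoptosome, read 462 and 626, 1.36-fold higher, and its second probe set was 1.73-fold higher (45.7 and 78.9). Ei24, which encodes a membrane protein of the endoplasmic reticulum, read 1256 and 1722 and was 1.37-fold higher. Eda2r, a receptor of the TNF receptor family, was 1.32-fold higher at 562 and 743.

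The remaining genes of this group differed by less. Phlda3, which encodes a repressor of the survival kinase AKT, was bright on both arrays at 1761 and 1974, a ratio of 1.12. Aen encodes a nuclease induced by p53, and its probe sets disagreed. The brightest was 1.15-fold lower at 535 and 466, and another read 95.0 and 185, 1.95-fold higher. Cd82, which encodes a tetraspanin that restrains metastasis, was 1.21-fold lower at 229.7 and 189, while a dimmer probe set read 51.9 and 62.4, a log2 ratio of 0.27. No direction is given for Aen or Cd82.

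Perp and Sfn are also known as genes of stratified epithelium. Of 15 keratinocyte markers measured, 1 passed 2-fold, Dsp, which encodes the desmosome protein desmoplakin, at 8.12-fold higher (39.3 and 319). The share of all named genes higher to that extent was 1.59%. The plakoglobin gene Jup read 199 and 340.2. The keratins of the basal layer (Krt5, Krt14, Krt15 and Krt17) ranged from 19.1 to 36.6 on the control array and 22.8 to 36.8 on the AK156230 array, all below the array medians, and no marker was at 0. Over the 15 markers the summed signal was 902 and 1281, but only Dsp and Jup were higher by 1.5-fold or more. No marker was lower to that extent, while of all named genes 5.48% were higher and 9.69% lower. The median log2 ratio of the 15 was 0.04, with 10 above 0 and 5 below. As the mean of its probe sets, Dsp had a log2 ratio of 2.04. Whether these markers bear on the Perp ratio was not tested.

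**Figure D2:**
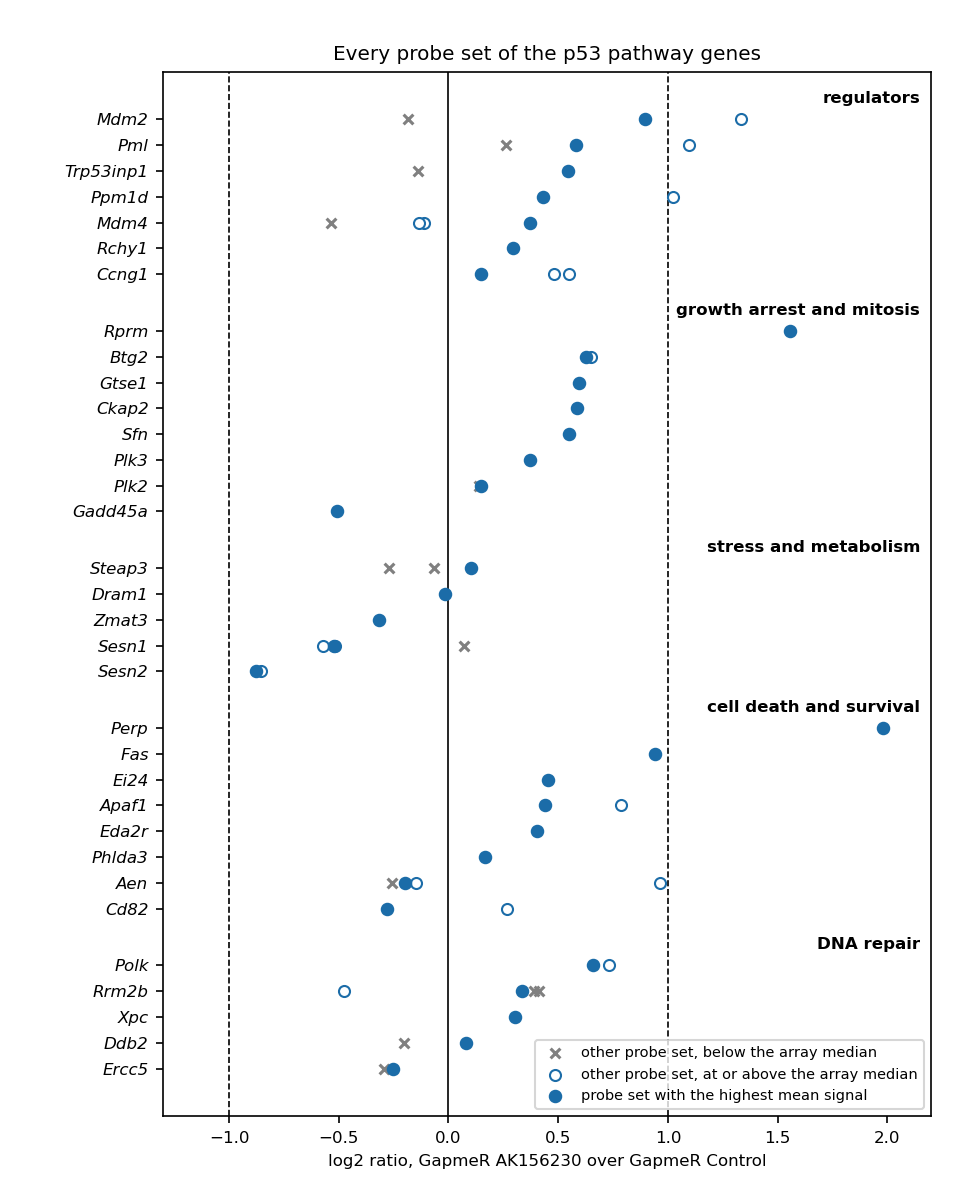
log2 ratio of the AK156230 array over the control array for each of the 63 probe sets of the p53 pathway genes, with the probe set of highest mean signal filled, other bright ones open, and dimmer ones as crosses; dashed lines mark 2-fold. The open points of Mdm2, Pml and Ppm1d lie past 2-fold while their filled points do not, and among bright probe sets Aen, Cd82, Mdm4 and Rrm2b have points on both sides of 0.

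The genes of stress and metabolism were mostly on the lower side, with 4 of 5 log2 ratios below 0 in the signals as deposited. Sesn2, on chr4:132492804-132510456, encodes Sestrin 2, which restrains mTORC1 when amino acids run low or DNA is damaged. It had a signal of 624 on the control array and 340.1 on the AK156230 array, 1.84-fold lower. A second probe set read 415 and 229.7, 1.81-fold lower, so both put Sesn2 as the lowest gene of the pathway. Its relative Sesn1 read 139 and 96.6, 1.44-fold lower, and its 2 other bright probe sets were 1.49-fold and 1.43-fold lower. Zmat3 encodes an RNA-binding protein that is among the most p53-dependent transcripts, and it was bright on both arrays and 1.25-fold lower (1787 and 1434). Dram1, which encodes a lysosomal membrane protein of p53-dependent autophagy, read 227 and 225, and its log2 ratio of -0.01 turned to 0.09 with arrays scaled to the same median. Steap3, a metalloreductase gene, read 84.0 and 90.2.

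Sesn2 and Gadd45a are also known targets of ATF4, the transcription factor of amino acid and endoplasmic reticulum stress. A list of Atf4 and 14 of its targets, put together after their values were seen, lay lower on the same array. Of these 15 genes 5 passed 2-fold, all of them lower, against 3.85% of all named genes. The median log2 ratio of the 15 was -0.61. The pseudokinase gene Trib3 had a log2 ratio of -1.58 (788 and 263), Chac1, which encodes an enzyme that breaks down glutathione, was 2.88-fold lower (659 and 228), and Atf4 itself 1.52-fold lower (1974 and 1298), while Atf3 was 1.86-fold higher. The part of ATF4 in the Sesn2 and Gadd45a ratios was not tested.

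None of the 5 genes of DNA repair passed 2-fold, and their median log2 ratio was 0.30. Polk, which encodes a polymerase that copies past damaged bases, was the highest of them and the 1 gene of this group past 1.5-fold. It read 400.3 and 632, 1.58-fold higher, with 1.66-fold at its second probe set. Rrm2b, the subunit of ribonucleotide reductase that p53 induces, was 1.26-fold higher at 119 and 149.8, although another probe set was 1.39-fold lower (64.8 and 46.5). Xpc, which recognizes damage for nucleotide excision repair, read 64.6 and 79.8, and Ercc5, the endonuclease of the same pathway, 391 and 328. Ddb2, another damage sensor, was below the array medians at 42.2 and 44.6, and its other probe set had a log2 ratio of -0.20, so no direction is given.

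Probe sets of the same gene mostly, but not always, went the same way. The 33 genes had 63 probe sets, of which 5 were higher and none lower by 2-fold or more, against 1.48% and 3.68% of all 34945 probe sets with 1 gene symbol. Of 17 further bright probe sets, in 13 genes, 12 had the same sign as the probe set that stood for the gene and 5 the opposite sign.

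**Figure D3:**
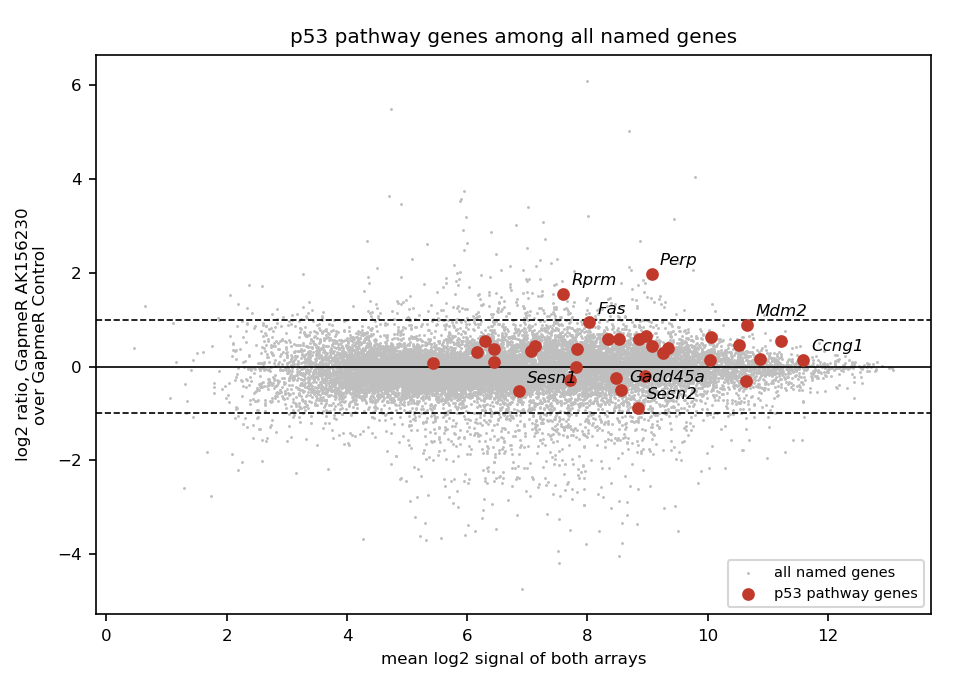
log2 ratio of the AK156230 array over the control array against the mean log2 signal of both arrays for all 18193 named genes (grey) and the p53 pathway genes (red), with dashed lines at 2-fold. Perp and Rprm lie above the upper line, Fas and Mdm2 just under it and Sesn2 just above the lower one.

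Long genes were more often lower on these arrays, since 8.06% of all genes of 40 kb or more passed 2-fold downward against 1.78% to 2.38% in the shorter classes. The pathway genes spanned 1.46 to 97.9 kb with a median of 21.9 kb, against 20.2 kb for all named genes. In each length class their median log2 ratio was above that of all genes. It was 0.27 against -0.05 for 8 genes under 10 kb, 0.50 against -0.03 for 8 genes of 10 to 20 kb, 0.34 against -0.04 for 9 genes of 20 to 40 kb, and 0.24 against -0.16 for 8 genes of 40 kb or more. Of the longest genes, Apaf1 (93.4 kb) was at 0.44 and Sesn1 (97.9 kb) at -0.52.

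A further 23 p53 targets outside these 33 were measured. Of the 23, 3 passed 2-fold, 2 upward and 1 downward, against 1.59% and 3.85% of all named genes, and 16 log2 ratios were above 0, with a median of 0.27. Pmaip1, the gene of the BH3-only protein Noxa, which promotes apoptosis, read 202 and 696, 3.44-fold higher, and Epha2, an ephrin receptor gene, 513 and 1174, 2.29-fold higher. Igfbp3, whose product sequesters insulin-like growth factors, was 5.74-fold lower (424 and 73.9). Cdkn1a, which encodes the cell cycle inhibitor p21 and was also chosen by the study from these arrays, stayed under 2-fold, with a log2 ratio of 0.50. By RT-qPCR the paper reports a significant increase of Cdkn1a as well, and by western blotting higher levels of the p21 and p53 proteins. Bbc3, which encodes the pro-apoptotic protein PUMA, read 93.3 and 88.7.

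Of 23 upstream regulators and cofactors of p53, 3 passed 2-fold, 1 upward and 2 downward, against 1.59% and 3.85% of all named genes. With so few genes these counts are near the share. The median log2 ratio was 0.07. Hipk2, a kinase gene whose product phosphorylates p53 in the commitment to cell death, read 508 and 117, 4.35-fold lower, but averaged over its 8 probe sets it had a log2 ratio of -0.84, short of 2-fold. The acetyltransferase gene Ep300 was 2.34-fold lower at its single probe set (522 and 223). Ppp1r13l, which encodes iASPP, an inhibitor of p53, was 2.09-fold higher (274 and 573) and short of 2-fold as the mean of its probe sets (log2 ratio 0.71). Chek2, a kinase gene that acts on p53 after DNA damage, read 95.8 and 178, and Cdkn2a, the locus of p19Arf and p16Ink4a, 393 and 630.3. Among further kinase genes of this list, Prkdc (log2 ratio -0.77), Atm (-0.53) and Atr (-0.20) were lower and Chek1 (0.25) was higher. Across the 23 genes, 13 log2 ratios were above 0 and 10 below.

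**Figure D4:**
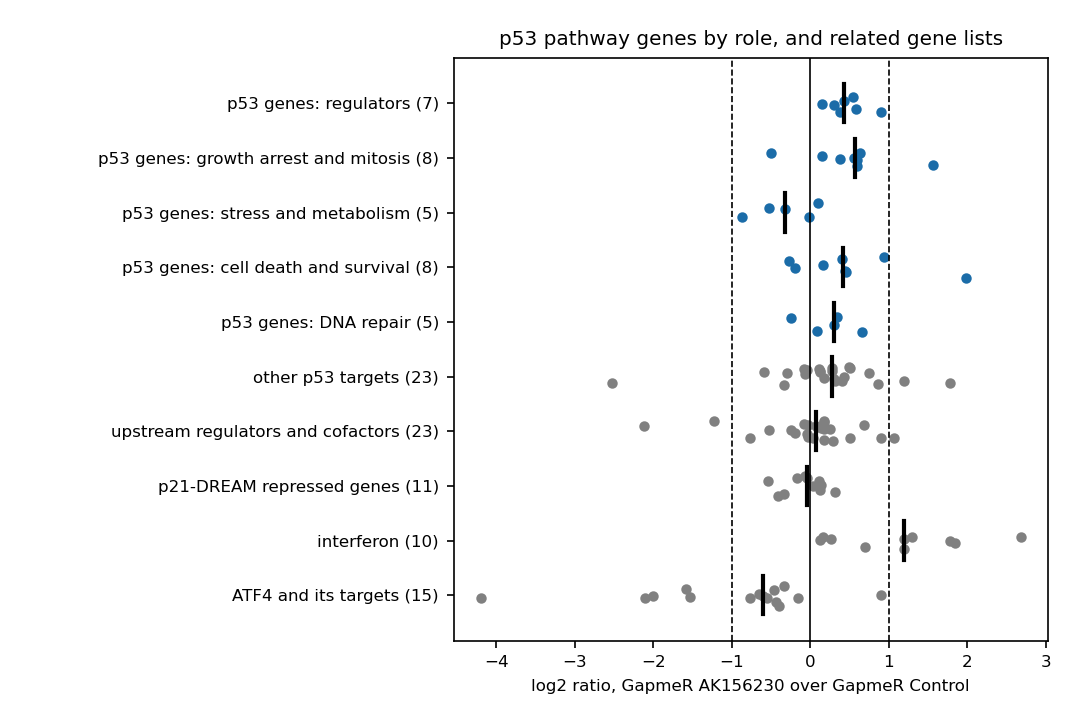
log2 ratio of the AK156230 array over the control array for each p53 pathway gene by role (blue) and for genes of related lists (grey), with the number of measured genes in brackets, a black bar at each median and dashed lines at 2-fold. The stress and metabolism median lies at -0.32 and those of the other roles between 0.30 and 0.57; the DREAM median lies at -0.04, the interferon median at 1.19 and the ATF4 median at -0.61.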

How the data were processed

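Total RNA of young MEFs was hybridized to Affymetrix mouse arrays, 1 for each condition. The authors processed the arrays with MAS5 (its version and its scaling target: not given in the sources used here), and the deposited values are intensity signals of 45037 probe sets on a linear scale. Detection calls were not used here. A porcine array is named in the methods of the paper, whereas the probe sets carry mouse annotation. Of the probe sets, 34945 had 1 gene symbol, 932 several and 9160 were not listed in the annotation used, and only the first kind was named, with symbols updated through Entrez IDs to RefSeq of GRCm38.p6. Lengths were found for 99.7% of named genes.

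Log2 ratios of the signals were computed from the deposited values with no offset, filter or further scaling. The paper's test (SAM) needs replicate arrays, so no test was run, and the number of arrays limits the precision. The genes, lists and rules were chosen with earlier results of these data known. Every measured gene of the pathway was named. From related lists, Cdkn1a, Pmaip1, Bax and Bbc3 (where measured), other targets past 2-fold and up to 4 further genes per list past 2-fold were named, and others were added after their values were seen. Lists of leukocyte and endothelial markers were also set. At 2-fold, 2 of 9 leukocyte markers were higher (Cd68 2.54-fold and Cd14 2.37-fold) and none was lower. The other 7 had log2 ratios below 0, and the median of the 9 was -0.30. Of 6 endothelial markers 1 was higher (Kdr 2.04-fold, at a log2 ratio of 0.74 with 24.3 added to every signal) and none was lower. For these 6 the median was -0.10, with 3 below 0. Of all named genes 1.59% were higher and 3.85% lower. The fibroblast markers lower by 2-fold or more included Prrx1, Pdgfra, Col3a1 and Pdgfrb, at log2 ratios of -2.56, -1.87, -1.56 and -1.47.

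Alternatives were quantile normalization, scaling to equal medians, a loess correction (span 0.3), an offset of 24.3 (the 25th percentile of signals), minimum signals at the 25th percentile or the median, the mean of all probe sets, leaving out _x_at and _s_at probe sets, and thresholds of 1.5-fold and 3-fold. The counting was tested on simulated data. Python 3.11.15, numpy 2.4.6, pandas 2.3.3, statsmodels 0.14.6 and matplotlib 3.10.9 were used.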

Additional observations from a re-analysis of the deposited data

How the results depend on the processing

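Over the 8 alternatives of scaling, offset, filter and probe set choice, the number of p53 pathway genes higher by 2-fold or more was 2 (Perp and Rprm), or 3 with arrays scaled to the same median, when Fas was added. None was lower by 2-fold or more. That scaling moved the median of all named genes from -0.07 to 0.03, so ratios of the pathway genes are best read against it. Their median log2 ratio ran from 0.29 (24.3 added to every signal) to 0.48 (same median), and 23 to 26 genes were above 0. At a threshold of 1.5-fold 8 genes were higher and 1 was lower, and at 3-fold 1 was higher and none lower. Leaving out Rprm, an alternative added after seeing the data, left 1 gene higher, a median of 0.35 and 24 genes above 0. Of the 33 genes 28 kept the sign of their log2 ratio in all 8 alternatives, and Mdm4, Steap3, Dram1, Aen and Ddb2 did not. No paired analysis was possible because each condition had 1 sample. With 1 array per condition, neither the spread between cultures nor that between arrays is known, and ratios of dim probe sets are the least certain.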

Other observations

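Relatives of the p53 pathway genes were chosen for comparison after their values were seen, and 1 of them, Sesn3, is also among the 23 other p53 targets. Gadd45g, which like Gadd45a encodes a stress protein of growth arrest, read 672 on the control array and 1338 on the AK156230 array and was 1.99-fold higher (it passed 2-fold in 3 of 8 alternatives), while Gadd45b was at 438 and 396 (log2 ratio -0.14, and 0.14 as the mean of its probe sets). The ratios of the Gadd45 genes lay on opposite sides of 0, with Gadd45a at -0.51 and Gadd45g at 0.99. Among the sestrin genes Sesn3 read 460.0 and 376, a log2 ratio of -0.29, on the same side as Sesn1 and Sesn2. Ccng2, which encodes the second cyclin G, was 1.54-fold higher (399 and 614), and Btg1 (687 and 732) and Trp53inp2 (502 and 550.0) differed by less than 1.5-fold.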
